A study of Mus musculus with 24 samples.

Results

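The sham-operated hearts of a mouse study of pressure overload were compared with one another over time. They make up 12 of the study's 24 RNA-seq libraries, chosen by their label as sham and not by any measured value, with 3 libraries each on days 2, 4, 7 and 21. The other 12 libraries came from hearts after TAC (transverse aortic constriction, a narrowing of the aorta that raises the load on the left ventricle) at the same 4 times. They are used only where sham values are set beside them. A sham operation normally repeats the surgery without the constriction. Every library was made from total RNA of a dissected left ventricle, which holds heart muscle cells, endothelium, fibroblasts, smooth muscle and macrophages. No genetic change is named in the labels. Strain, sex, age at operation, drugs and the clock hour of collection were not given in the sources used here. Unoperated mice were not analysed here. Day after surgery, age of the mouse, hour of collection and batch of collection therefore cannot be told apart in these groups. Nothing says that the 3 libraries of a day came from separate animals, so p-values measure the spread between libraries, which may be technical. In whole tissue, more or fewer cells of a type and more or less RNA per cell cannot be told apart.

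Heart cells carry a circadian clock. In it, BMAL1 (encoded by Arntl) pairs with CLOCK or NPAS2 and binds E-box sequences to switch on the Per and Cry genes, whose proteins in turn block that pair. The REV-ERB repressors (Nr1d1, Nr1d2) act on Arntl through ROR elements, and the PAR-bZIP factors DBP, TEF and HLF are clock outputs that act at D-box sequences. Arntl and Npas2 messages are known to peak at roughly the opposite time of day from those of Per2, Per3 and Dbp. Surgery is known to raise glucocorticoid hormones and acute phase proteins for some days, and glucocorticoids act on Per1, Fkbp5, Zbtb16 and the metallothioneins. In young mice the heart also goes on growing, and fetal muscle and matrix genes are known to fall with age.

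Promoters of 5 clock genes are shown because their messages varied between the days and they hold the elements just named. Each window runs from 250 bases before to 50 bases after the start of the gene, 5′ to 3′ on the gene's strand, from RefSeq on GRCm38.p6. Capitals mark the E-box CACGTG in Ciart, Per1 and Tef, the D-box TTATGTAA in Per3 and the ROR element TAGGTCA in Arntl.
Arntl, chr7:113207261-113207560, plus strand: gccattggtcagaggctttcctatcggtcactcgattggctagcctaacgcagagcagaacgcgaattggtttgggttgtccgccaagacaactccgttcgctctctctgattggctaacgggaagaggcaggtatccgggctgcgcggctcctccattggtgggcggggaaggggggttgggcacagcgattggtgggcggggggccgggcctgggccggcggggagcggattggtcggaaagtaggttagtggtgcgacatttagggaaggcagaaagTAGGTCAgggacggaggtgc
Ciart, chr3:95882179-95882478, minus strand: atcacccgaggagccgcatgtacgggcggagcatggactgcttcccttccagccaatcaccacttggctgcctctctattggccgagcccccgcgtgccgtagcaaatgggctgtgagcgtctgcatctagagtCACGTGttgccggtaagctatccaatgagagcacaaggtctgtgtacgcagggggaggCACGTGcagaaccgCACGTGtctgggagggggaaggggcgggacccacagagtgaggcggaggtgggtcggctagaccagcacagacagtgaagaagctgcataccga
Per1, chr11:69098699-69098998, plus strand: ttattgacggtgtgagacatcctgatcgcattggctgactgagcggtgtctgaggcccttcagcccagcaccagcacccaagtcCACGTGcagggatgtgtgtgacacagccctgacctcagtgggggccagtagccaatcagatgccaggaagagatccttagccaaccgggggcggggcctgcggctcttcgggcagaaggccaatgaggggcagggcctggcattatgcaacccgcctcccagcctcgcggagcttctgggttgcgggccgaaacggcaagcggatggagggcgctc
Per3, chr4:151044616-151044915, minus strand: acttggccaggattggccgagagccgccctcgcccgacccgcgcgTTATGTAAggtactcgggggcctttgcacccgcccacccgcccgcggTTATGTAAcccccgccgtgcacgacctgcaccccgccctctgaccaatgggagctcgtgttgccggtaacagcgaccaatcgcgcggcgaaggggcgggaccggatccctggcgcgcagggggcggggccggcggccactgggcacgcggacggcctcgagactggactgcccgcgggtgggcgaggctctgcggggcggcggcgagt
Tef, chr15:81802423-81802722, plus strand: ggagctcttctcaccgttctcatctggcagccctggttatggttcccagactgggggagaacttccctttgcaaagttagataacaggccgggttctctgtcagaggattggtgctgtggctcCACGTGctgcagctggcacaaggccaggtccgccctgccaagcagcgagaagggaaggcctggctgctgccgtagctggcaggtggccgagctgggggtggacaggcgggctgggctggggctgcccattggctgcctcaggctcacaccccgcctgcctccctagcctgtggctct

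The Ciart window held 3 E-boxes, starting 116, 58 and 44 bases before the gene. The E-box of Per1 started 166 bases and that of Tef 127 bases before the gene. In Per3 the D-boxes started 205 and 158 bases before the gene, and in Arntl the ROR element lay at base 31 of the gene. Both strands were searched, and no motif overlapped another. Of 24 genes of the clock lists that varied between days, 18 had a promoter in the table. An E-box was found in 7 of these (38.9%), namely Per1, Cry1, Tef, Bhlhe41, Ciart, Tspan4 and Slc41a3, against 11.5% of 9913 tested genes and 7.15% of all 32851 promoters. The D-box was found in 1 of the 18 (5.56%), against 0.656% of tested genes and 0.938% of all promoters. For the ROR element it was 1 (5.56%), against 2.2% of tested genes and 2.61% of all promoters. A gene counted when any of its promoters matched. A match describes letters and is no evidence of binding, and the other 6 genes had no promoter entry. The clock lists were chosen with earlier results of these data known, so these shares are a description.

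Depth ran between 10.69 and 17.11 M counted reads per sham library (M is 1000000), and between 8.684% and 10.03% of them fell on a single gene. Of 24015 genes listed, 13256 had enough reads to be tested. Levels are given as CPM, counts per 1000000 reads after scaling of the libraries, which are not divided by gene length and so compare days for a gene and not genes with each other. Myh6, the adult ventricular myosin, and Myl2, the ventricular light chain, were abundant in every sham library. Myl2 was at 5807, 6031 and 6223 CPM on day 2, 7657, 7628 and 6886 on day 4, 6797, 6664 and 6958 on day 7 and 7164, 7187 and 6968 on day 21. Counts of replicates differed by more than counting noise in every pair, with a chi-square per degree of freedom of 3.604 to 10.74, so that no library was a copy of another.

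A few libraries stood apart in markers of other tissues. Myl7, the atrial light chain, had 0, 37.2 and 94.8 CPM of all reads on day 2, 0.0836, 0 and 0.159 on day 4, 2.54, 3.46 and 3.23 on day 7 and 9.40, 69.9 and 1.13 on day 21. Day 2 replicates 2 and 3 and day 21 replicate 2 were thus the sham libraries high in this marker, and 2 other atrial genes, Myl4 and Sln, were high in the same libraries. Of the 16 genes of the atrial list, 1 was at 0 in every sham library, and their summed level was 835 to 1336 CPM on day 2, 875 to 1054 on day 4, 805 to 865 on day 7 and 876 to 1276 on day 21. The 16 adipocyte markers summed to 2429 CPM in day 4 replicate 3 and to 387 to 519 CPM in the other sham libraries. There the brown fat gene Ucp1 had 179 reads, against 0 or 1 elsewhere, and the fat hormone Adipoq had 169, against 0 to 9. The 10 markers of cartilage and valve summed to 14.0 to 43.6 CPM on day 2, 12.9 to 28.6 on day 4, 32.2 to 52.1 on day 7 and 29.2 to 97.7 on day 21. Results that move with any of these libraries are given with and without them, as counts of genes.

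**Figure D1:**
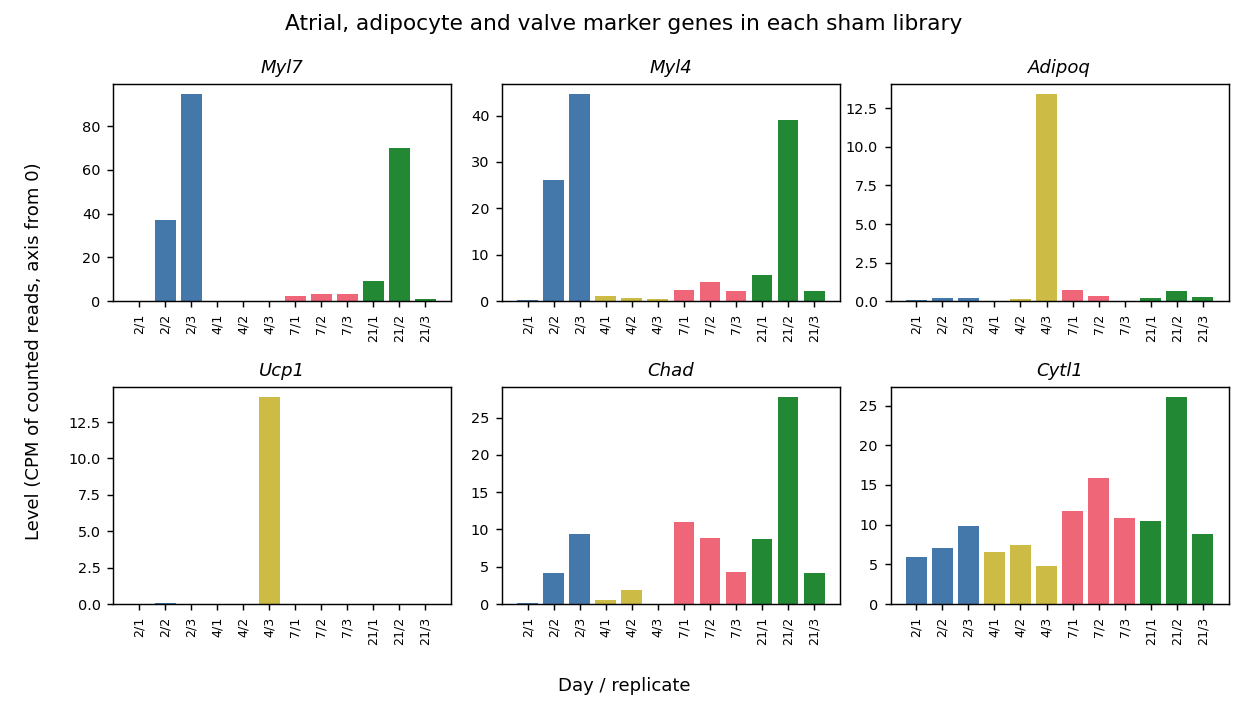
Level (CPM of counted reads) of 6 marker genes in each sham library, 1 bar per library, labelled by day and replicate. Myl7 and Myl4, of atrial muscle, stand high in day 2 replicates 2 and 3 and day 21 replicate 2, Adipoq and Ucp1, of fat, in day 4 replicate 3, and Chad and Cytl1, of cartilage and valve, reach their highest bar in day 21 replicate 2.

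Over the 4 days 737 genes differed at an adjusted p under 0.05, which is 5.56% of those tested. The pair of days 7 and 4 gave the most calls. Day 7 differed from day 4 in 538 genes (4.06%), 297 higher and 241 lower on day 7. Day 21 differed from day 2 in 402 genes (3.03%), 213 higher and 189 lower. Against day 2, 221 genes differed on day 7 (1.67%) and 141 on day 4 (1.06%), and 204 differed between days 21 and 4 (1.54%) and 134 between days 21 and 7 (1.01%). The median log2 fold change over all genes was within 0.003 of 0 in each of the 6 pairs. Most differences were small: among the 737 genes the median distance between the highest and the lowest day was 0.54 on the log2 scale, 125 genes spanned at least 1 and 333 less than 0.5. At a change of at least 2-fold, 90 genes were called between days 7 and 4, 47 between days 21 and 2, 42 between days 21 and 4, 33 between days 7 and 2, 25 between days 4 and 2 and 16 between days 21 and 7. Of the 737, 242 were highest on day 7 (32.8%) and 217 on day 4 (29.4%), with 129 highest on day 2 (17.5%) and 149 on day 21 (20.2%). Among all tested genes these shares were 24%, 24.4%, 26.3% and 25.3%. With Myl7 as a covariate or without day 4 replicate 1, days 21 and 2 gave the most, 557 and 560 genes, against 551 and 551 for days 7 and 4, and without day 4 replicate 3 they gave 429 against 412. The 402 genes of days 21 and 2 became 113 without day 2 replicate 1, 121 without day 2 replicate 2, and 158, 111 and 150 without day 21 replicates 1, 2 and 3. The 538 of days 7 and 4 became 327, 342 and 356 without day 7 replicates 1, 2 and 3. Leaving out 1 library at a time gave 486 to 900 genes over the 4 days, and 280 of the 737 were called in all 12 such fits.

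**Figure D2:**
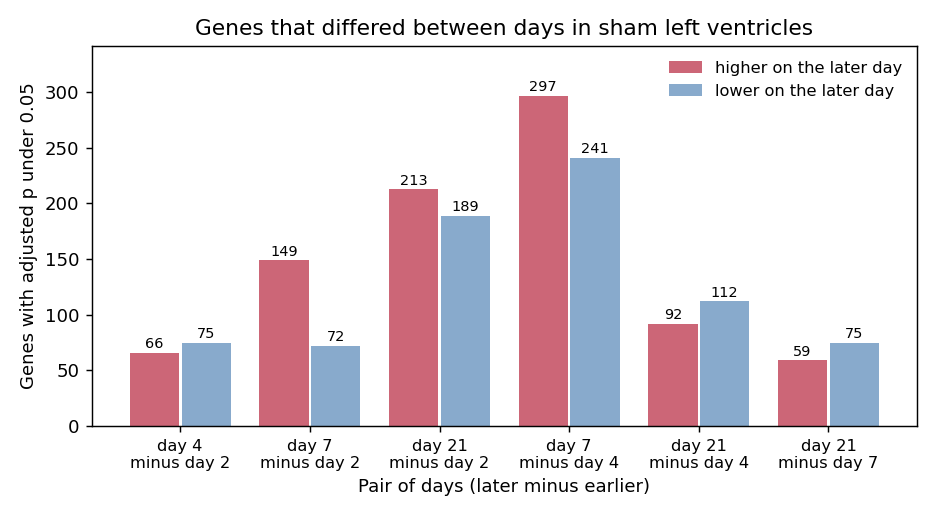
Genes with an adjusted p under 0.05 in each pair of days, as bars for those higher and those lower on the later day, out of 13256 tested. The pair of days 7 and 4 has the tallest bars, 297 higher and 241 lower, and the pair of days 21 and 7 the fewest genes, 59 higher and 75 lower.

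Clock genes led the differences. Members of this and all later lists were chosen with earlier results of these data known, so the shares called are a description. Of 15 core clock genes tested 12 varied over the days (80%), and 12 of 20 clock outputs (60%), against 5.56% of all genes. Of these, 9 in each list were called in all 12 fits that leave out 1 library, against 280 of the 737 called among all genes. Between days 7 and 4, 7 core genes were higher and 4 lower, with a median log2 fold change over the list of 0.17. For the outputs, 11 were higher and 2 lower, with a median of 0.55. Among all genes 2.24% were higher and 1.82% lower, and the median was -0.0010. Of the 12 genes with the smallest p over the 4 days that the naming rule gave, 7 were on these lists: Arntl, Per1, Per2, Dbp, Tef, Ciart and Usp2. Leaving out day 4 replicate 2 gave 4 core genes higher on day 7 than on day 4, and no other single library moved the 7 or the 11 by over 1.5 times.

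The activators of the loop were high on day 4 and low on day 7. Arntl had 11.03, 10.2 and 6.11 CPM on day 2, 22.5, 17.9 and 21.5 on day 4, 1.62, 0.846 and 2.26 on day 7 and 13.05, 8.50 and 11.6 on day 21. Every day 4 library was above every other library and every day 7 library below them, and days 2 and 21 overlapped. The log2 fold change of Arntl was -3.71 ± 0.27 (SE; adjusted p = 7.32e-08) between days 7 and 4, -2.54 ± 0.28 (SE; adjusted p = 6.89e-05) between days 7 and 2 and 2.82 ± 0.28 (SE; adjusted p = 4.27e-05) between days 21 and 7. Npas2 had 7.16, 7.14 and 7.16 CPM on day 2, 17.3, 11.7 and 13.8 on day 4, 5.40, 2.62 and 3.47 on day 7 and 7.84, 7.02 and 6.53 on day 21, again highest on day 4 and lowest on day 7, with a log2 fold change of -1.88 ± 0.20 (SE; adjusted p = 1.51e-05) between days 7 and 4. Clock, the partner of BMAL1 in most tissues, moved less. Clock had 126, 139.8 and 115 CPM on day 2, 138, 137 and 147 on day 4, 85.8, 99.4 and 96.3 on day 7 and 124, 109 and 126 on day 21. Its day 7 libraries lay below all others, and the log2 fold change was -0.59 ± 0.082 (SE; adjusted p = 0.000202) between days 7 and 4.

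The Per genes, which encode repressors of that pair, ran the other way. Per2 had 30.7, 31.9 and 39.4 CPM on day 2, 17.9, 16.2 and 13.4 on day 4, 76.4, 85.02 and 74.95 on day 7 and 30.7, 46.7 and 37.3 on day 21. Day 7 stood above and day 4 below all other libraries, and the log2 fold change was 2.32 ± 0.14 (SE; adjusted p = 1.41e-08) between days 7 and 4. Per3 had 44.5, 52.8 and 71.02 CPM on day 2, 32.8, 38.8 and 33.5 on day 4, 88.9, 92.2 and 85.6 on day 7 and 52.9, 61.4 and 56.5 on day 21, in the same order, with 1.34 ± 0.12 (SE; adjusted p = 1.79e-06). Per1, which is also a glucocorticoid target, was low on both early days. Per1 had 46.2, 49.7 and 60.4 CPM on day 2, 56.99, 50.3 and 38.04 on day 4, 122, 136 and 121 on day 7 and 105, 95.6 and 79.1 on day 21. Days 2 and 4 overlapped, day 21 lay above them and day 7 above day 21, with log2 fold changes of 1.38 ± 0.13 (SE; adjusted p = 1.82e-06) between days 7 and 4 and 0.94 ± 0.13 (SE; adjusted p = 0.00124) between days 21 and 4. Cry1, another repressor, was at 10.9 to 14.8 CPM on day 7 and 6.23 to 9.26 CPM on the other days, and its log2 fold change was 0.57 ± 0.15 (SE; adjusted p = 0.0384) between days 7 and 4. Cry2 had 0.41 ± 0.11 (SE; adjusted p = 0.0409) in the same contrast.

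Of the REV-ERB repressors, Nr1d2 rose on day 7 relative to day 4. Nr1d2 had 164, 170.3 and 187 CPM on day 2, 119, 152 and 144 on day 4, 187, 219 and 205 on day 7 and 163, 166 and 166 on day 21, and the log2 fold change between days 7 and 4 was 0.56 ± 0.084 (SE; adjusted p = 0.000532). The day 7 and day 4 libraries did not overlap. Nr1d1 had -0.37 ± 0.073 (SE; adjusted p = 0.00513) in that contrast, the opposite direction. Nr1d1 overlaps Thra on the other strand and the labels do not say whether strand was counted, so its reads may include Thra. Csnk1d, a kinase that marks PER proteins for turnover, had 0.40 ± 0.085 (SE; adjusted p = 0.00878) between days 7 and 4.

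Among the outputs, the PAR-bZIP factors followed the Per genes. Dbp had 83.5, 109 and 109 CPM on day 2, 59.6, 82.6 and 75.9 on day 4, 194, 199.7 and 198 on day 7 and 98.3, 123 and 108 on day 21. Day 7 was above and day 4 below every other library, and the log2 fold change between days 7 and 4 was 1.44 ± 0.11 (SE; adjusted p = 1.92e-07). Tef had 100.1, 102 and 124 CPM on day 2, 78.5, 81.1 and 72.95 on day 4, 181, 179 and 177 on day 7 and 108, 120.2 and 116 on day 21, with 1.21 ± 0.079 (SE; adjusted p = 2.96e-08), and Hlf had 0.96 ± 0.11 (SE; adjusted p = 3.01e-05). Ciart, a clock gene whose protein represses BMAL1 activity, spanned the widest range of the repressors. Ciart had 4.06, 4.28 and 4.42 CPM on day 2, 1.98, 3.03 and 2.35 on day 4, 11.8, 16.2 and 17.7 on day 7 and 6.92, 7.48 and 6.31 on day 21. The 4 days did not overlap at all, and the log2 fold change between days 7 and 4 was 2.63 ± 0.19 (SE; adjusted p = 7.32e-08).

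Usp2, a deubiquitinase under clock control, was 226, 224 and 224 CPM on day 7 and 127, 126 and 122 on day 4, a log2 fold change of 0.85 ± 0.066 (SE; adjusted p = 1.85e-07). Bhlhe41, which encodes the repressor DEC2, had 0.87 ± 0.12 (SE; adjusted p = 0.000185), and Wee1, a cell cycle kinase with clock-driven transcription, 1.03 ± 0.19 (SE; adjusted p = 0.00309). Tspan4, a tetraspanin, had 0.91 ± 0.16 (SE; adjusted p = 0.00218). Slc41a3, a magnesium carrier gene, followed Arntl and not Per. Slc41a3 had 34.7, 43.6 and 37.3 CPM on day 2, 64.1, 55.3 and 45.5 on day 4, 21.2, 14.9 and 25.9 on day 7 and 37.6, 35.2 and 34.3 on day 21. Its day 4 libraries lay above and its day 7 libraries below all others, with -1.41 ± 0.15 (SE; adjusted p = 1.19e-05). Bhlhe40, Coq10b and Herpud1 were also higher on day 7 than on day 4, and Mtss1 was lower. Cirbp, an RNA-binding protein that follows body temperature, had 16.8 to 26.5 CPM in the 12 libraries and an adjusted p over the 4 days of 0.342.

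**Figure D3:**
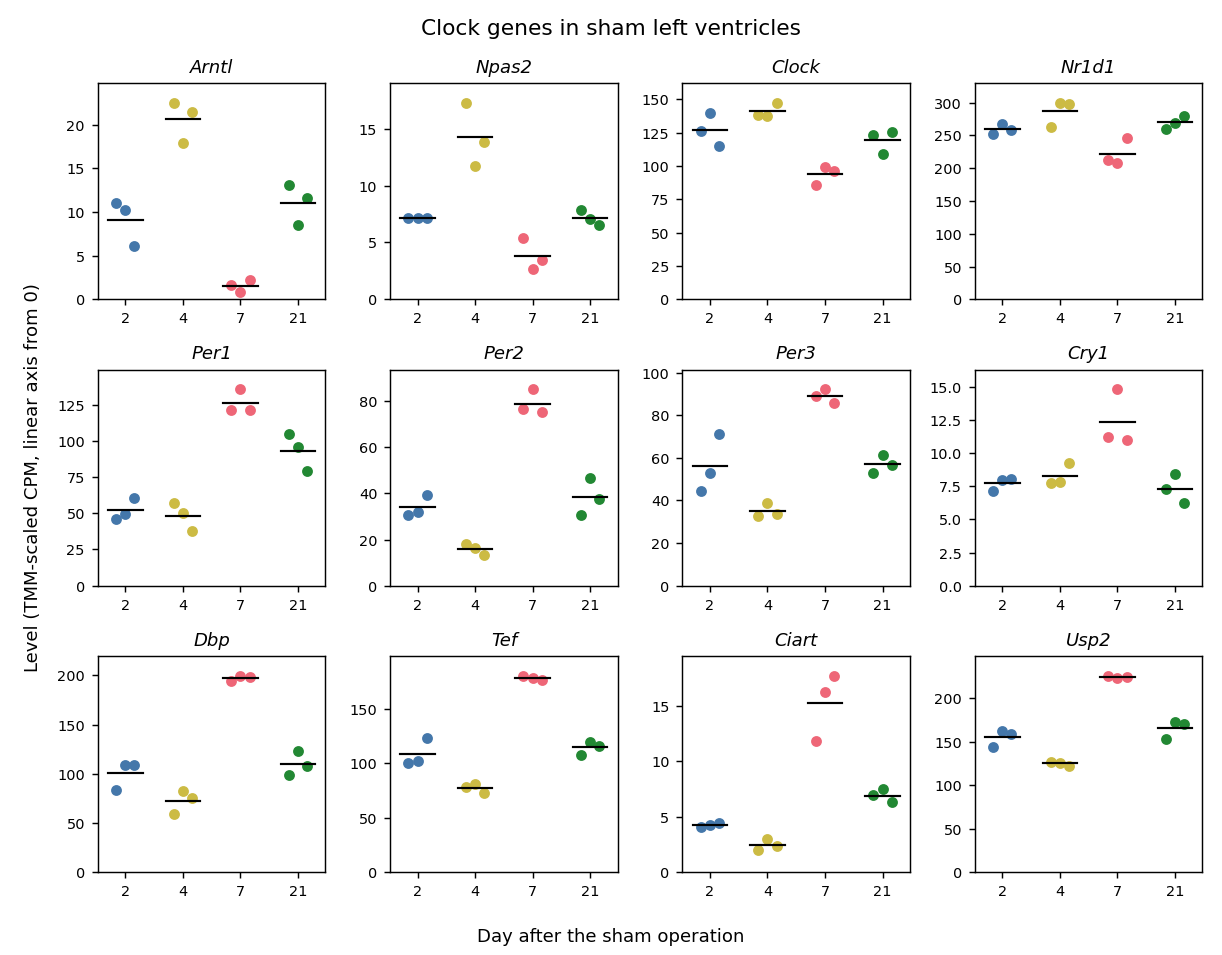
Level (TMM-scaled CPM, linear axes from 0) of 12 clock genes by day in sham hearts, with 1 point per library and a line at the mean of the 3. Arntl, Npas2 and Clock have their highest mean on day 4 and lowest on day 7, and Per2, Per3, Dbp, Tef, Ciart and Usp2 have the reverse.

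Set beside the TAC hearts, which were collected on the same days, most clock genes showed the same direction between days 7 and 4. The 2 operations share no library. TAC libraries varied more between replicates, with a biological coefficient of variation of 0.187 in TAC hearts and 0.0853 in sham hearts, and 161 genes (1.18%) varied over the days in TAC. Both lists shared 46 genes, 28.6% of those called in TAC hearts and 6.24% of those called in sham hearts. Of the 12 core clock genes called in sham hearts, 6 were called in TAC hearts, and 12 had the same sign between days 7 and 4. Of the 12 outputs, 2 were called in TAC hearts and 11 had the same sign. The share of same signs over all genes was not computed, so these sign counts are a description. These TAC calls rest on few libraries: leaving out 1 TAC library gave 0 to 7 of the core genes and 0 to 2 of the outputs, with 0 and 0 without TAC day 2 replicate 2. The core count was 3 or fewer without any 1 library of TAC day 4 or day 7 and without TAC day 21 replicate 1 or 2, and 4 without TAC day 21 replicate 3. The test of a difference in time course between TAC and sham called 51 of 13816 genes (0.369%). Of the 24 clock genes none passed it, with a lowest adjusted p of 0.103 for the core genes and 0.289 for the outputs, and 3 core genes and 3 outputs had an unadjusted p under 0.05. A p that misses the threshold does not show that the courses were equal.

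In TAC hearts Arntl had 3.53, 5.56 and 5.01 CPM on day 2, 18.7, 21.8 and 21.2 on day 4, 4.70, 2.02 and 1.62 on day 7 and 12.998, 9.39 and 17.01 on day 21. Day 4 was thus high and day 7 low after either operation. Day 2 was also low in TAC hearts and overlapped day 7, while in sham hearts each day 2 library lay above day 7. The log2 fold change of Arntl between days 7 and 4 was -2.87 ± 0.35 (SE; adjusted p = 0.0128) in TAC hearts and -3.71 ± 0.27 (SE; adjusted p = 7.32e-08) in sham hearts. Per2 had 56.97, 69.2 and 61.95 CPM on day 7 and 21.9, 9.95 and 14.8 on day 4 in TAC hearts, a log2 fold change of 2.01 ± 0.28 (SE; adjusted p = 0.028). On day 2 Per2 had 64.9, 46.9 and 37.7 CPM in TAC hearts and overlapped day 7, while in sham hearts days 2 and 7 did not overlap. Per3 had 1.57 ± 0.19 (SE; adjusted p = 0.0128) in TAC hearts and 1.34 ± 0.12 (SE; adjusted p = 1.79e-06) in sham hearts, both positive. Dbp had 1.40 ± 0.32 (SE; adjusted p = 0.153) in TAC hearts and 1.44 ± 0.11 (SE; adjusted p = 1.92e-07) in sham hearts. For Dbp the fold changes were close and the SE was larger in TAC hearts. Usp2 had 0.53 ± 0.20 (SE; adjusted p = 0.433) in TAC hearts and 0.85 ± 0.066 (SE; adjusted p = 1.85e-07) in sham hearts.

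**Figure D4:**
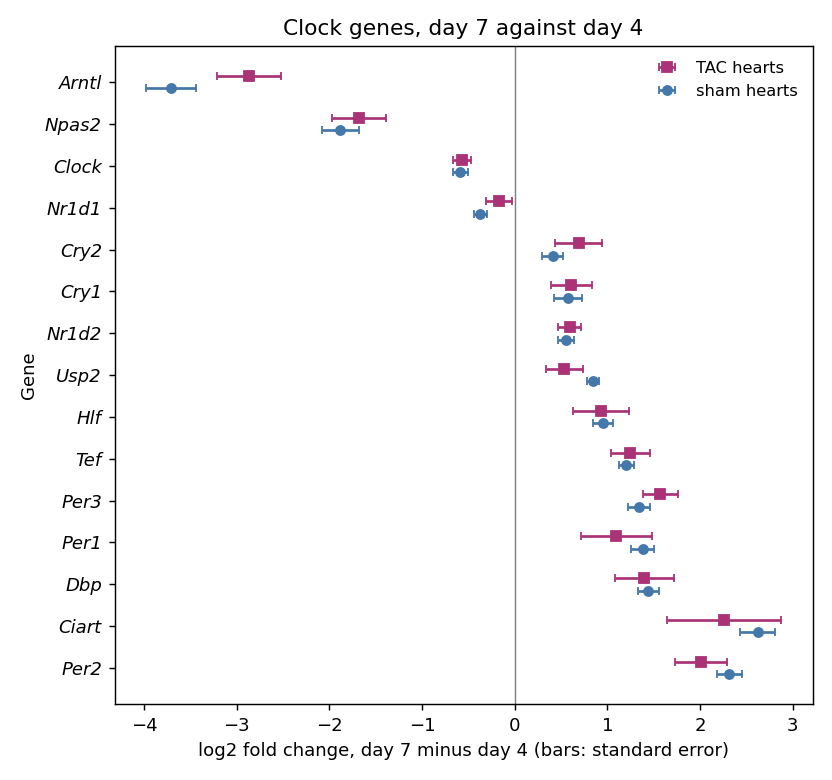
Log2 fold change of 15 clock genes, day 7 minus day 4, with squares for TAC hearts and circles for sham hearts and bars of 1 standard error from each fit. The TAC bars are longer, and Arntl lies at -2.87 in TAC hearts and -3.71 in sham hearts, Per2 at 2.01 in TAC hearts and 2.32 in sham hearts.

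Part of the glucocorticoid targets were higher on day 7 than on day 4. Of 26 tested genes of this list 13 varied over the days (50%), against 5.56% of all genes. Of the 13, 9 were called in all 12 fits that leave out 1 library, against 280 of 737 among all genes. Between days 7 and 4, 11 were higher, against 2.24% of all genes, with a median of 0.22, and between days 4 and 2, 6 were lower, against 0.566%, and 1 higher, against 0.498%. Per1 is on this list as well as on the core clock list. Zbtb16, a transcription factor strongly induced by glucocorticoids, gave the smallest p of the list. Zbtb16 had 93.5, 90.02 and 95.9 CPM on day 2, 48.998, 45.5 and 32.7 on day 4, 145, 154 and 149 on day 7 and 73.4, 78.99 and 59.2 on day 21. The 4 days did not overlap, and the log2 fold change was 1.82 ± 0.12 (SE; adjusted p = 2.83e-08) between days 7 and 4 and -1.14 ± 0.12 (SE; adjusted p = 6.1e-05) between days 4 and 2. Fkbp5, which encodes a chaperone that dampens the glucocorticoid receptor, had 21.2, 14.8 and 14.9 CPM on day 2, 8.68, 8.12 and 9.02 on day 4, 19.6, 22.2 and 21.97 on day 7 and 12.8, 15.98 and 11.3 on day 21. Day 4 lay below all other libraries, with 1.30 ± 0.15 (SE; adjusted p = 3.54e-05) between days 7 and 4.

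Tsc22d3, which encodes the anti-inflammatory mediator GILZ, was highest on day 7. Tsc22d3 had 41.4, 40.3 and 44.4 CPM on day 2, 47.7, 42.1 and 38.4 on day 4, 67.3, 78.3 and 64.4 on day 7 and 54.4, 55.5 and 48.6 on day 21, with 0.71 ± 0.090 (SE; adjusted p = 6.96e-05) between days 7 and 4. The metallothioneins Mt1 and Mt2, which bind zinc and copper, were lowest on day 4. Mt1 had 155, 119.5 and 129 CPM on day 2, 74.2, 69.7 and 73.8 on day 4, 108, 115 and 115 on day 7 and 89.8, 80.6 and 90.04 on day 21. Day 4 was below all others, and the log2 fold change was -0.89 ± 0.085 (SE; adjusted p = 4.02e-05) between days 4 and 2. For Mt2 it was -1.58 ± 0.18 (SE; adjusted p = 0.000283), and reads of these 2 similar genes may be shared. Klf9 and Foxo3 were also higher on day 7 than on day 4, with log2 fold changes of 0.43 and 0.40. In TAC hearts 1 of the 13 genes, Lcn2, varied over the days and 11 had the same sign as in sham hearts between days 7 and 4. The share of same signs over all genes was not computed.

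Lcn2 and Serpina3n, of the acute phase genes, had their highest mean on day 2. Of 11 tested genes of the list of acute phase and neutrophil genes 3 varied over the days (27.3%), against 5.56% of all genes. Between days 21 and 2 all 3 were lower, against 1.43% of all genes. The list's median was -0.23. Lcn2 had 12.3, 4.70 and 8.56 CPM on day 2, 1.63, 2.15 and 3.37 on day 4, 4.48, 6.60 and 5.65 on day 7 and 2.92, 2.59 and 3.68 on day 21. Lcn2, which encodes lipocalin, an iron-scavenging acute phase protein, was higher in each day 2 library than in any day 4 or day 21 library, while days 2 and 7 overlapped. Its log2 fold change was -1.46 ± 0.30 (SE; adjusted p = 0.0151) between days 21 and 2 and -1.82 ± 0.31 (SE; adjusted p = 0.00724) between days 4 and 2. Serpina3n had 32.7, 22.7 and 18.5 CPM on day 2, 9.11, 9.32 and 14.4 on day 4, 11.97, 23.5 and 13.6 on day 7 and 10.9, 9.24 and 11.9 on day 21. Serpina3n, a secreted protease inhibitor of the acute phase, had -1.20 ± 0.23 (SE; adjusted p = 0.0121) between days 21 and 2. The neutrophil gene S100a8 was at 0.0924 to 1.41 CPM throughout, a few reads per library. The number lower on day 21 than on day 2 was 0 without day 2 replicate 1 or without day 21 replicate 2, and 1 without day 21 replicate 1. Over all genes it was 56, 43 and 71 in these fits, against 189 with all libraries. The chemokine Ccl2 was at 0.868 to 3.45 CPM with an adjusted p over the days of 0.188.

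A few macrophage genes were lower on day 21 than on day 2. Of 30 tested 5 varied over the days (16.7%), against 5.56% of all genes. Between days 21 and 2, 4 were lower, against 1.43% of all genes, with a median of -0.35. Emr1, which encodes the F4/80 antigen, was 7.92, 7.58 and 8.79 CPM on day 21 and 15.03, 13.7 and 13.2 on day 2, with -0.78 ± 0.15 (SE; adjusted p = 0.0122). Mrc1, the mannose receptor of resident macrophages, had -0.50 ± 0.10 (SE; adjusted p = 0.0171), and F13a1, a transglutaminase of the same cells, -0.62 ± 0.11 (SE; adjusted p = 0.00743). None of these 3 overlapped between day 21 and day 2. Without the 3 libraries high in Myl7 the number lower on day 21 was again 4 and with Myl7 as a covariate 8, but it was 1 without day 2 replicate 1 or day 21 replicate 2 and 7 without day 2 replicate 3. Over all genes 189 were lower on day 21 with all libraries. Without day 2 replicate 1, day 21 replicate 2 or day 2 replicate 3 it was 56, 43 and 159. Ccl8, a chemokine of resident macrophages, was at 0.0772 to 0.423 CPM on days 7 and 21 and at 0.702 to 1.65 CPM on days 2 and 4, with -2.53 ± 0.51 (SE; adjusted p = 0.00588) between days 7 and 4. Csf1, the growth factor of macrophages, was higher on day 7. Csf1 had 80.8, 92.9 and 68.003 CPM on day 2, 66.4, 82.2 and 62.6 on day 4, 121, 87.6 and 107 on day 7 and 56.5, 68.6 and 65.4 on day 21, with -0.73 ± 0.13 (SE; adjusted p = 0.00554) between days 21 and 7.

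Part of the interferon genes were lower on day 21 than on day 4. Of 27 genes of the type I response 9 varied over the days (33.3%), against 5.56% of all genes. Of 30 genes induced by interferon gamma or used in antigen presentation 12 did (40%). Between days 21 and 4, 9 and 12 of them were lower, against 0.845% of all genes, with medians of -0.63 and -0.59. Oasl2 had 30.4, 30.1 and 22.6 CPM on day 2, 29.6, 30.9 and 36.1 on day 4, 24.8, 26.1 and 22.7 on day 7 and 18.8, 17.3 and 19.4 on day 21. Day 21 lay below all other libraries for Oasl2, an antiviral sensor, with -0.80 ± 0.11 (SE; adjusted p = 0.00154) between days 21 and 4. Gbp3 had 26.6, 23.1 and 23.9 CPM on day 2, 25.8, 42.6 and 31.4 on day 4, 27.6, 31.7 and 24.1 on day 7 and 15.2, 16.998 and 19.3 on day 21. Gbp3, a guanylate-binding protein, had -0.96 ± 0.15 (SE; adjusted p = 0.00326), and reads may be shared within this family of similar genes. Igtp had 13.8, 13.2 and 13.3 CPM on day 2, 17.8, 56.1 and 18.04 on day 4, 15.7, 21.6 and 14.8 on day 7 and 13.5, 12.8 and 11.9 on day 21. The value of 56.1 CPM in day 4 replicate 2 was well above that of any other library for this interferon-induced GTPase, and its log2 fold change was -1.26 ± 0.31 (SE; adjusted p = 0.0463).

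Of the 9 and 12 genes, 2 in each list were called in every fit that leaves out 1 library, so these calls rest on few libraries. Among all genes 280 of 737 were. Lower on day 21 than on day 4 were 9 type I and 12 gamma genes in all 12 libraries, 7 and 4 without the 3 libraries high in Myl7, 4 and 9 without these and the library with adipocyte markers, and 2 and 2 with Myl7 as a covariate. Leaving out 1 library gave 3 to 15 and 1 to 16, with the lowest values, 3 and 1, without day 4 replicate 2. Without any 1 library of day 21 they were 3 to 5 and 2 to 4, without day 4 replicate 1 the type I count was 15, and without day 4 replicate 3 it was 4. Over all genes 112 were lower with all libraries and 59 without day 4 replicate 2. Without any 1 library of day 21 it was 33 to 40. Cd274, which encodes the checkpoint ligand PD-L1 and is induced by interferon, was 18.1, 14.1 and 18.7 CPM on day 21 and 23.6, 45.2 and 35.8 on day 4, with -1.03 ± 0.17 (SE; adjusted p = 0.00428). Irf1, an interferon-induced factor, was higher on day 4 than on day 2, with 0.44 ± 0.10 (SE; adjusted p = 0.0427). Rsad2, the antiviral protein viperin, had -0.59 ± 0.14 (SE; adjusted p = 0.0381) between days 21 and 4 in sham hearts.

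Immediate early genes, which respond within minutes to stimulation and to handling of tissue, were in part higher on later days than on day 2. Of 26 tested 11 varied over the days (42.3%), against 5.56% of all genes. Of the 11, 8 were called in all 12 fits that leave out 1 library, against 280 of 737 among all genes. Between days 21 and 2, 10 were higher, against 1.61% of all genes, with a median of 0.55. Jun had 52.3, 43.7 and 50.04 CPM on day 2, 71.4, 61.7 and 63.9 on day 4, 81.6, 89.2 and 85.3 on day 7 and 76.9, 107 and 85.3 on day 21. All 9 later libraries were above the 3 of day 2 for this AP-1 subunit, with 0.88 ± 0.10 (SE; adjusted p = 0.000439) between days 21 and 2. Nr4a1 had 10.7, 7.02 and 6.53 CPM on day 2, 16.8, 16.2 and 11.1 on day 4, 29.9, 14.9 and 17.2 on day 7 and 27.3, 24.5 and 35.4 on day 21. Nr4a1, an orphan nuclear receptor, also had its 3 lowest libraries on day 2, with 1.85 ± 0.23 (SE; adjusted p = 0.000505). Egr1 had 30.1, 18.7 and 24.4 CPM on day 2, 52.2, 62.3 and 77.4 on day 4, 29.6, 21.1 and 38.5 on day 7 and 37.1, 34.8 and 75.8 on day 21. Egr1, a zinc finger factor, was instead highest on day 4 or in single libraries of day 21, with 1.40 ± 0.25 (SE; adjusted p = 0.00942) between days 4 and 2. Klf2, which is induced by flow in endothelium, had 0.92 ± 0.13 (SE; adjusted p = 0.000504) between days 7 and 2. Without the 3 libraries high in Myl7, 2 instead of 10 genes were higher on day 21 than on day 2, and the number was 5 without day 2 replicate 2 and 4 without day 21 replicate 3. The libraries high in Myl7 include 2 of the 3 of day 2, and calls over all genes in this pair fell as well without them. Over all genes 70 were higher without day 2 replicate 2 and 86 without day 21 replicate 3, against 213 with all libraries. With Myl7 as a covariate 13 genes of the list and 299 of all genes were higher. Jun and Nr4a1 kept their call over the 4 days and between days 21 and 2 under every alternative run.

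Of the skeletal muscle list, 4 genes were higher on day 7 than on day 4. Only 6 of 16 skeletal muscle genes had enough reads to be tested, and 4 varied over the days (66.7%), against 5.56% of all genes. All 4 were called in every fit that leaves out 1 library, against 280 of 737 among all genes. All 4 were higher on day 7 and on day 21 than on day 4, against 2.24% and 0.694% of all genes, with a median over the 6 of 1.24 between days 7 and 4. The skeletal markers that do not also belong to the heart were near 0: Myh1, Myh2, Mylpf and Tnnc2 had at most 5 reads in a library. Myh4 had 52 reads in day 4 replicate 3 and at most 7 in any other library. Day 4 replicate 3 also had the most reads of Atp2a1 (24) and Tnnt3 (19). Mybpc2 had 12.3, 14.5 and 16.98 CPM on day 2, 13.5, 8.76 and 7.77 on day 4, 36.4, 33.1 and 33.7 on day 7 and 24.2, 30.6 and 27.2 on day 21. Mybpc2, the fast skeletal myosin-binding protein, was above days 2 and 4 in each day 7 and day 21 library, with 1.79 ± 0.16 (SE; adjusted p = 9.25e-07) between days 7 and 4. Acta1 had 240.2, 186 and 154 CPM on day 2, 113, 120.4 and 210.5 on day 4, 419.6, 460.0 and 472 on day 7 and 436, 241 and 315 on day 21. Acta1, the skeletal actin that fetal hearts also use, had 1.61 ± 0.21 (SE; adjusted p = 0.00011) in the same contrast, and its reads can be shared with the similar cardiac actin gene. Casq1 had 3.23, 8.57 and 10.2 CPM on day 2, 6.53, 6.45 and 3.45 on day 4, 19.1, 21.5 and 20.2 on day 7 and 15.5, 22.1 and 12.4 on day 21. Casq1, the fast-fibre calcium store protein, had 1.89 ± 0.30 (SE; adjusted p = 0.000762), and Myot, a Z-disc protein, 0.87 ± 0.13 (SE; adjusted p = 0.000446).

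Of 24 fetal and stress genes of heart muscle 11 varied over the days (45.8%, against 5.56% of all genes). Between days 7 and 4, 7 were higher and 4 lower, against 2.24% and 1.82% of all genes, with a median of 0.13. This list shares Acta1 and Casq1 with the skeletal one. Ankrd1 had 1045, 873 and 1333 CPM on day 2, 1038, 1154 and 1060.3 on day 4, 1920.2, 1743 and 1950.0 on day 7 and 1866, 2035 and 1782 on day 21. Ankrd1, a titin-binding protein induced by stretch, was higher on days 7 and 21 than on days 2 and 4 with no overlap, with 0.79 ± 0.10 (SE; adjusted p = 0.000122) between days 7 and 4. Myl1 had 47.999, 50.7 and 45.3 CPM on day 2, 27.9, 31.5 and 42.4 on day 4, 59.8, 88.2 and 68.4 on day 7 and 33.5, 35.01 and 32.1 on day 21. Myl1, a fast light chain, had day 7 on top, with 1.08 ± 0.13 (SE; adjusted p = 5.67e-05) between days 7 and 4 and -1.11 ± 0.13 (SE; adjusted p = 0.000252) between days 21 and 7. The natriuretic peptide gene Nppb went the other way, at 32.1, 15.6 and 28.1 CPM on day 7 and 64.04, 43.5 and 46.1 on day 4, with -1.01 ± 0.22 (SE; adjusted p = 0.0119). Nppa, its atrial relative, was at 111 to 301 CPM with an adjusted p over the days of 0.389. Myh7, the fetal myosin, spread from 55.7 to 380 CPM within day 2 and had 1.63 ± 0.43 (SE; adjusted p = 0.0471) between days 21 and 2. Myh6, the adult myosin, had an adjusted p over the days of 0.756, and its log2 fold changes between days lay between -0.11 (day 21 minus day 7) and 0.058 (day 7 minus day 2).

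Of 24 ventricular sarcomere and calcium genes 4 varied over the days (16.7%, against 5.56% of all genes). Myl2 was lowest on day 2, with 0.30 ± 0.051 (SE; adjusted p = 0.00795) between days 4 and 2, and Slc8a1, the sodium-calcium exchanger, was highest there. Slc8a1 had 1428, 1487 and 1568 CPM on day 2, 1333, 1252 and 1302 on day 4, 1213, 1179 and 1206 on day 7 and 1103, 1180.1 and 1190.3 on day 21. Each day 2 library lay above all later ones, with -0.37 ± 0.055 (SE; adjusted p = 0.00174) between days 21 and 2. Gja1, the gap junction protein connexin 43, gave 1 of the 12 smallest p-values. Gja1 had 419.7, 455 and 448 CPM on day 2, 552, 583 and 619 on day 4, 344, 313 and 331 on day 7 and 461, 454 and 437 on day 21. Day 4 stood above and day 7 below all other libraries, the order also seen for Arntl, with -0.83 ± 0.062 (SE; adjusted p = 1.3e-07) between days 7 and 4. Scn4b, a sodium channel subunit, was 18.2, 11.6 and 9.61 CPM on day 21 and 19.4, 41.2 and 30.7 on day 2, with -1.20 ± 0.23 (SE; adjusted p = 0.0121). Scn4b was highest in day 2 replicates 2 and 3, which are high in Myl7. Its log2 fold change was -1.12 (adjusted p = 0.00324) with Myl7 as a covariate and -0.48 (adjusted p = 0.588) without the 3 libraries high in Myl7.

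Part of the smooth muscle genes were higher on days 7 and 21 than on day 2. Of 16 tested genes of pericytes and smooth muscle 7 varied over the days (43.8%), against 5.56% of all genes. Of the 7, 5 were called in every fit that leaves out 1 library, against 280 of 737 among all genes. Between days 21 and 2, 6 were higher, against 1.61% of all genes, with a median of 0.19. Cnn1 had 1.55, 0.892 and 0.561 CPM on day 2, 2.15, 1.27 and 0.941 on day 4, 5.79, 3.98 and 4.60 on day 7 and 5.49, 4.62 and 5.48 on day 21. Calponin, which Cnn1 encodes, is an actin-binding protein of contractile smooth muscle, and its log2 fold change was 2.36 ± 0.31 (SE; adjusted p = 0.000505) between days 21 and 2. Tagln had 17.9, 11.7 and 8.42 CPM on day 2, 17.5, 11.5 and 13.02 on day 4, 34.8, 26.8 and 29.7 on day 7 and 29.3, 19.6 and 32.7 on day 21. Tagln, which encodes another such protein, had 1.11 ± 0.21 (SE; adjusted p = 0.0119), and the myosin gene Myh11 had 0.78 ± 0.18 (SE; adjusted p = 0.0287). Without the 3 libraries high in Myl7, no gene of the list was called between days 21 and 2 or between days 7 and 2, where 6 and 5 were called with all libraries, against 1.61% and 1.12% of all genes. That fit leaves day 2 with 1 library, which is assumed to vary like the others. With Myl7 as a covariate on all 12 libraries, 7 and 5 were higher in these contrasts. Between days 7 and 4, 5 genes were higher with and without those libraries. Between days 21 and 2 the number was 3 without day 2 replicate 1 or day 21 replicate 1, 2 without day 2 replicate 2 and 1 without day 21 replicate 3. Over all genes 57, 87, 70 and 86 were higher in these fits, against 213 with all libraries.

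Part of the markers of activated fibroblasts were lowest on day 4. Of 18 tested markers of activated fibroblasts 7 varied over the days (38.9%), against 5.56% of all genes. On day 21, 7 were higher than on day 4, against 0.694% of all genes, with a median of 0.53. Between days 7 and 4, 6 were higher, against 2.24% of all genes. This list shares Tagln and Cnn1 with the smooth muscle list. Tagln, Cnn1 and Ctgf, also of this list, had their lowest mean on day 2 and not on day 4. Ctgf had 30.1, 22.8 and 47.9 CPM on day 2 and 71.3, 44.6 and 41.2 on day 4. Cilp had 15.9, 19.3 and 16.2 CPM on day 2, 5.85, 9.32 and 6.98 on day 4, 19.4, 19.5 and 18.8 on day 7 and 13.98, 33.1 and 17.9 on day 21. Cilp, a matrix protein of injured heart, was lower in each day 4 library than in all others, with 1.38 ± 0.24 (SE; adjusted p = 0.00185) between days 7 and 4. Ltbp2 had 3.10, 6.01 and 8.21 CPM on day 2, 3.44, 3.34 and 1.65 on day 4, 15.1, 9.73 and 8.16 on day 7 and 7.34, 17.1 and 6.31 on day 21. Ltbp2, a latent TGF-beta binding protein, had 1.98 ± 0.40 (SE; adjusted p = 0.00616), and Angptl7, a secreted factor that is not on the list, 3.36 ± 0.56 (SE; adjusted p = 0.00134). Thbs4, a matrix protein, had 2.03 ± 0.48 (SE; adjusted p = 0.0397) between days 21 and 4. All 4 were higher in day 2 replicates 2 and 3 than in replicate 1 and had their highest day 21 value in replicate 2, the order that the cartilage and valve markers also showed. Chad, a cartilage matrix gene, was at 0.129, 4.22 and 9.26 CPM on day 2, 0.516, 1.83 and 0 on day 4, 11.04, 8.88 and 4.43 on day 7 and 8.63, 27.4 and 4.13 on day 21. The part of valve tissue in these differences was not tested. Higher on day 21 than on day 4 were 5 genes without the 3 libraries high in Myl7, 3 with Myl7 as a covariate, 2 without day 4 replicate 2 or 3, 4 without day 4 replicate 1 or day 7 replicate 3 and 3 without day 21 replicate 2. Over all genes 92 were higher on day 21 than on day 4 with all libraries and 48 with Myl7 as a covariate. Without day 4 replicate 2 or 3 or day 21 replicate 2 it was 55, 44 and 46. The 6 fibroblast markers that were higher on day 7 than on day 4 became 5 to 7 when 1 library was left out.

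Among 44 fibrillar matrix genes 9 varied over the days (20.5%, against 5.56% of all genes). Of the 9, 1 was called in every fit that leaves out 1 library, against 280 of 737 among all genes. Between days 7 and 4, 5 were higher and 3 lower, against 2.24% and 1.82% of all genes, with a median of 0.19. Col1a2, an abundant collagen chain, was 143, 148 and 129 CPM on day 7 and 107, 112 and 100.2 on day 4, with 0.40 ± 0.093 (SE; adjusted p = 0.0181), and its adjusted p over the 4 days was 0.0546. Col1a1, its partner chain, was at 128 to 225 CPM with an adjusted p over the days of 0.181, and Col3a1 at 181 to 284 CPM with 0.627. Postn, a matrix protein of activated fibroblasts, was at 40.0 to 80.9 CPM with an adjusted p of 0.741, and Spp1, osteopontin, at 0.387 to 2.49 CPM with 0.555. Col5a3 had 18.7, 24.04 and 23.4 CPM on day 2, 33.3, 27.2 and 26.9 on day 4, 19.1, 15.1 and 13.1 on day 7 and 34.3, 34.2 and 29.4 on day 21. This fibrillar collagen chain was low on day 7, with 1.04 ± 0.13 (SE; adjusted p = 0.000366) between days 21 and 7. Timp1, a metalloproteinase inhibitor, was 0.713, 1.66 and 1.20 CPM on day 21 and 2.97, 2.62 and 3.30 on day 2, with -1.33 ± 0.30 (SE; adjusted p = 0.025). Its day 2 libraries lay above those of days 4 and 21. Thbs1, a matrix protein that activates TGF-beta, had 1.24 ± 0.28 (SE; adjusted p = 0.0251) in the same contrast. The 5 matrix genes higher on day 7 than on day 4 became 0 without day 7 replicate 1, 2 without day 7 replicate 2 and 3 without day 4 replicate 3. Over all genes 191, 204 and 229 were higher in these fits, against 297 with all libraries.

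A few mitosis genes were lower on day 2 than later, and DNA replication genes gave no call. Of 29 tested mitosis genes 3 varied over the days (10.3%, against 5.56% of all genes), and 5 were higher on day 21 than on day 2, against 1.61%, with a median of 0.60. Mki67 had 21.03, 17.02 and 15.02 CPM on day 2, 29.1, 29.3 and 27.8 on day 4, 39.5, 58.9 and 25.01 on day 7 and 36.4, 30.3 and 29.2 on day 21. All later libraries were above day 2 for Mki67, the marker of cycling cells, with 1.22 ± 0.20 (SE; adjusted p = 0.0029) between days 7 and 2. Top2a, a topoisomerase of dividing cells, was 6.41, 8.46 and 3.65 CPM on day 7 and 3.03, 2.26 and 1.47 on day 2, with 1.44 ± 0.28 (SE; adjusted p = 0.0101). Cenpf, a centromere protein gene on the same list, was highest on day 4 and lowest on day 7, with -1.43 ± 0.23 (SE; adjusted p = 0.000949). Without the 3 libraries high in Myl7 the number of mitosis genes higher on day 21 than on day 2 was 0, with 1 library left on day 2, and with Myl7 as a covariate it was 5. The number was also 0 without day 2 replicate 2 or 3 or day 21 replicate 1 or 2, and 2 without day 2 replicate 1, day 7 replicate 1 or day 21 replicate 3. Over all genes 57 to 170 were higher when any 1 of these libraries was left out, against 213 with all libraries. None of 31 DNA replication genes was called over the days by edgeR, DESeq2 or limma-voom, and 5 had an unadjusted p under 0.05 in edgeR.

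Among vessel and metabolic genes, Kdr and a few enzymes varied. Of 26 endothelial genes 6 varied over the days (23.1%). Kdr had 297, 289 and 238 CPM on day 2, 302, 275 and 303 on day 4, 175, 183 and 215 on day 7 and 270.4, 246 and 264 on day 21. Kdr, the main receptor for VEGF, was below all other libraries on day 7, with -0.62 ± 0.087 (SE; adjusted p = 0.000239) between days 7 and 4. Of 20 fasting and ketone genes 2 varied (10%): Bdh1, a ketone body enzyme, had -0.73 ± 0.11 (SE; adjusted p = 0.00402) between days 4 and 2, and Lpl, lipoprotein lipase, -0.36 ± 0.050 (SE; adjusted p = 0.00112) between days 21 and 2. For Bdh1 each day 2 library was above all later ones. Pdk4, which spares glucose in fasting, spread from 180.4 to 634 CPM with an adjusted p over the days of 0.588. Of 33 fatty acid oxidation genes 3 varied (9.09%), of 51 oxidative phosphorylation genes 3 (5.88%), of 31 glycolysis genes 3 (9.68%) and of 48 ribosomal protein genes 4 (8.33%), close to the 5.56% of all genes. Ppargc1a, the coactivator of mitochondrial genes, had -0.36 ± 0.070 (SE; adjusted p = 0.0119) between days 21 and 2.

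Glycogen regulators took opposite directions. Ppp1r3a, the muscle glycogen-targeting subunit, was 557, 613 and 592 CPM on day 7 and 395, 444 and 440.1 on day 4, with 0.46 ± 0.070 (SE; adjusted p = 0.000532), and Ppp1r3c, a related subunit, had -0.74 ± 0.12 (SE; adjusted p = 0.00134). Of 21 imprinted and postnatal growth genes 2 varied over the days (9.52%), among them Plagl1, a factor of fetal growth, with -0.97 ± 0.17 (SE; adjusted p = 0.00857) between days 21 and 4. Tfrc, the transferrin receptor that takes up iron, was lower later. Tfrc had 183, 95.6 and 80.9 CPM on day 2, 75.2, 119 and 119.6 on day 4, 67.2, 42.7 and 60.97 on day 7 and 53.3, 39.4 and 56.9 on day 21. Days 7 and 21 lay below days 2 and 4, with -1.26 ± 0.24 (SE; adjusted p = 0.0119) between days 21 and 2. Among all genes 5.56% varied over the days. Of 22 heat shock genes 3 varied (13.6%), of 25 genes of the unfolded protein response 4 (16%) and of 21 antioxidant genes 5 (23.8%). Of 20 markers of resident fibroblasts 3 varied (15%) and of 18 basement membrane genes 2 (11.1%). Of 30 ion channel genes 5 varied (16.7%) and of 20 cytokine genes 2 (10%).

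In the remaining lists 3 of 13 atrial genes tested varied over the days (23.1%), against 5.56% of all genes. Of 7 cartilage and valve genes 2 varied (28.6%), and of 8 adipocyte genes 2 (25%). Scd1 and Fasn, enzymes of fat synthesis, were the adipocyte genes, and both rested on day 4 replicate 3, where Scd1 had 1263 CPM against 18.1 to 28.6 in the other 11 libraries. Elovl6, which lengthens fatty acids, was at 42.0 CPM in that library and at 1.30 to 3.34 elsewhere. No gene was called over the days by edgeR among 5 lymphocyte, 5 sex-linked, 5 red blood cell, 10 Schwann cell, 3 mesothelium and 5 mast cell markers, where 3, 2, 2, 2, 1 and 0 had an unadjusted p under 0.05. DESeq2 called 1 of the lymphocyte markers and limma-voom none. For the pair of days 7 and 4, edgeR called 1 lymphocyte marker, Cd79a, lower on day 7, against 1.82% of all genes. It also called 1 sex-linked gene higher on day 7, against 2.24%.

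Some genes on no list were among the strongest. Adam19 had 35.7, 39.4 and 39.3 CPM on day 2, 64.2, 55.4 and 55.5 on day 4, 21.9, 21.5 and 18.5 on day 7 and 43.2, 36.5 and 46.9 on day 21. Adam19, a membrane metalloproteinase, was highest on day 4 and lowest on day 7 without overlap, the order of Arntl, with -1.50 ± 0.10 (SE; adjusted p = 2.96e-08) between days 7 and 4. Rhobtb1 had 92.6, 88.4 and 106 CPM on day 2, 68.1, 52.9 and 53.7 on day 4, 143, 149 and 130.2 on day 7 and 84.7, 100.2 and 91.2 on day 21. Rhobtb1, an atypical small GTPase, had the reverse order, with 1.27 ± 0.098 (SE; adjusted p = 1.74e-07) in the same contrast. Lrrc17 had 152, 164 and 138 CPM on day 2, 215, 199 and 248 on day 4, 111, 129 and 127 on day 7 and 115, 81.6 and 75.7 on day 21. Lrrc17, a secreted leucine-rich repeat protein, was highest on day 4, with -1.28 ± 0.12 (SE; adjusted p = 5.12e-05) between days 21 and 4. Cdh4, a cadherin, was highest on day 21, at 10.98, 9.05 and 11.9 CPM on day 21 and 3.35, 4.22 and 3.86 on day 2, with 1.48 ± 0.19 (SE; adjusted p = 0.000505). Slit2, a guidance ligand, was below all other libraries on day 7, with -1.16 ± 0.19 (SE; adjusted p = 0.0023) between days 7 and 2. 

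The remaining genes given by the naming rule had the widest fold changes of a pair of days. Higher on day 7 than on day 2 was Gdf10, a BMP-like factor, with 1.38 ± 0.22 (SE; adjusted p = 0.00238). Lower on day 7 were Asxl3, a chromatin gene, with 0.97 ± 0.22 (SE; adjusted p = 0.043) between days 21 and 7, Efr3b, a membrane scaffold gene, with 0.84 ± 0.14 (SE; adjusted p = 0.00325), and Prdm1, the repressor BLIMP1, with 1.03 ± 0.23 (SE; adjusted p = 0.0367). Chac1, a glutathione-degrading enzyme of the stress response, had -1.30 ± 0.29 (SE; adjusted p = 0.0342) and Slc15a2, a peptide transporter gene, -2.06 ± 0.48 (SE; adjusted p = 0.0453) between the same days. Higher on day 4 than on day 2 were Adcy1, an adenylyl cyclase, with 1.25 ± 0.22 (SE; adjusted p = 0.00887), and Scgb1c1, a secretoglobin gene, with 1.01 ± 0.18 (SE; adjusted p = 0.00889). Rtn4r, the Nogo receptor gene, was lower, with -1.42 ± 0.32 (SE; adjusted p = 0.0359). Lower on day 21 than on day 2 were Ush1c, a scaffold gene, with -1.44 ± 0.33 (SE; adjusted p = 0.0277), and D7Ertd715e, with -1.05 ± 0.27 (SE; adjusted p = 0.0388). Tgtp2, an interferon-induced GTPase, had -1.15 ± 0.26 (SE; adjusted p = 0.0309) between days 21 and 4. Snora81 and Snord15a, small nucleolar RNAs hosted in other genes, had 1.44 ± 0.18 (SE; adjusted p = 0.000505) and 1.25 ± 0.20 (SE; adjusted p = 0.00256) between days 21 and 2.

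**Figure D5:**
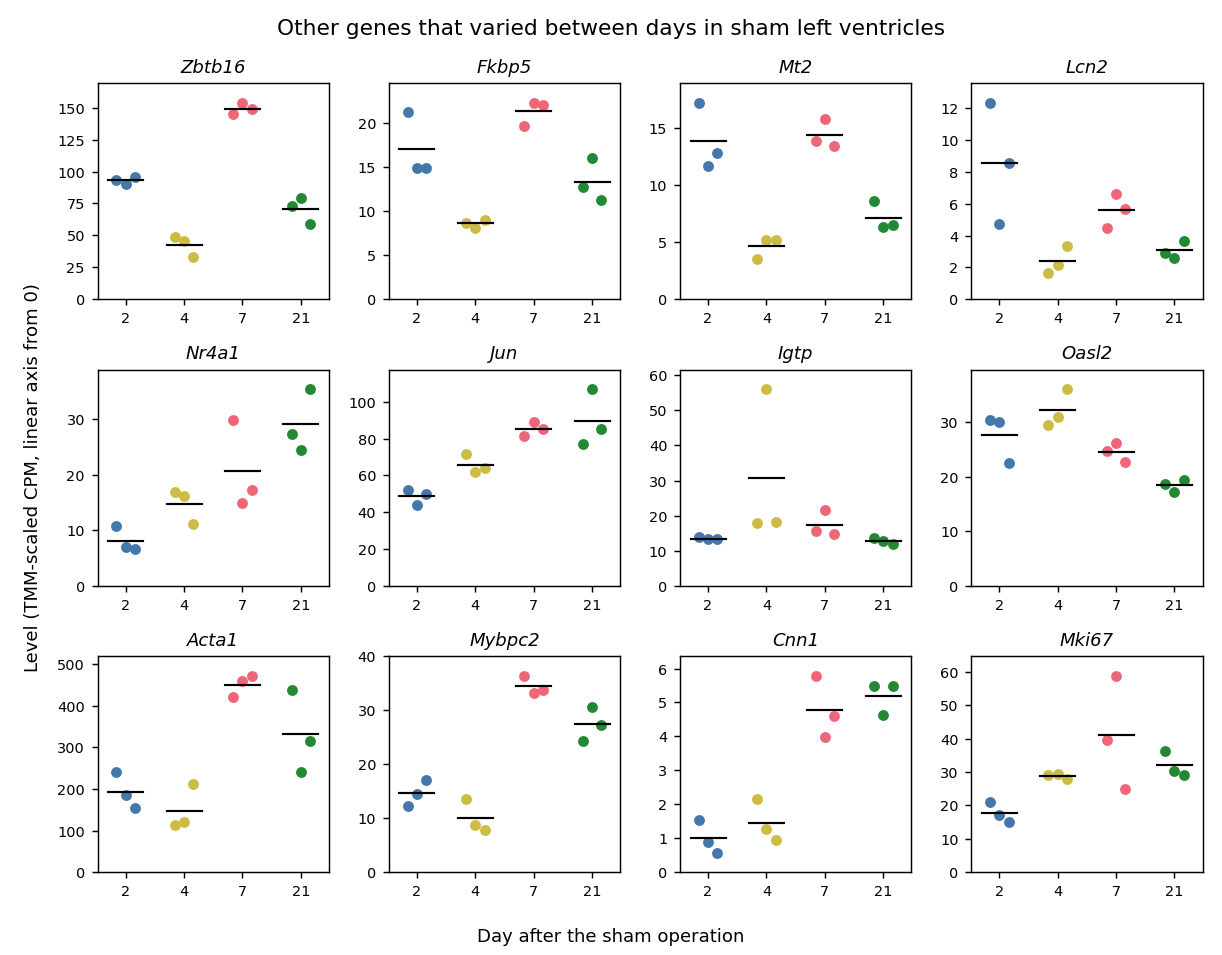
Level (TMM-scaled CPM, linear axes from 0) by day of 12 genes from the glucocorticoid, acute phase, immediate early, interferon, muscle, smooth muscle and mitosis lists, with 1 point per library and a line at the mean of the 3. Zbtb16, Fkbp5 and Mt2 are lowest on day 4, Jun and Nr4a1 on day 2, and Igtp has 1 high library on day 4.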

How the data were processed

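The study holds 24 RNA-seq libraries of mouse left ventricle, and the 12 sham libraries are the subject here. The authors deposited raw read counts per gene symbol, whole numbers, and a table of RPKM values. The RPKM values were used as deposited, and their relation to the counts is not shown here. TopHat, DESeq and the build hg19 are named without versions or roles, per the submitters' processing notes. A human build cannot give mouse gene symbols, so the mouse build, annotation, counting tool and use of strand were not given in the sources used here. Libraries were made with a NuGEN Ovation kit, per the labels.

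The 4 sham groups were analysed with edgeR 4.0.16 (R 4.3.3). Its filterByExpr kept 13256 of 24015 genes, which held 99.94% of the reads, and TMM gave the library scaling. Group means of the 4 days were fitted by quasi-likelihood (glmQLFit, glmQLFTest), leaving 8 residual degrees of freedom. The tests covered all 4 days at once and the 6 pairs of days as later minus earlier, two-sided, with Benjamini-Hochberg adjustment over all tested genes at 0.05. SEs are the size of the log2 fold change over the square root of F. TAC hearts were fitted in the same way on their own (13688 genes), and a fit of all 24 libraries (13816 genes) tested whether the course over the days differed between TAC and sham.

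Named genes came from a rule: the 12 smallest p-values over the days, the 6 highest and 6 lowest fold changes of each pair of days among called genes without overlap between libraries (both with a mean log2 CPM of 2 or more), called members of the gene lists and a fixed panel. Predicted genes with clone names were passed over. A few genes that the rule gave are not reported here. The members, lists and rule were chosen with earlier results of these data known. Alternatives were RLE scaling, other filters, DESeq2 1.42.0, limma 3.58.1 with voom and on log2(RPKM + 1), all 24 libraries in 1 fit, a replicate block, each library left out, the libraries over 30 CPM of Myl7 left out, and Myl7 as a covariate. The fitting was tested on simulated data. Depth was 10.69 to 17.11 M reads (M, 1000000 reads), and replicate libraries differed by more than counting noise.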

Additional observations from a re-analysis of the deposited data

Results flagged for a closer look

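Among named genes that varied over the days in sham hearts, the course differed between TAC and sham hearts for 5. The test was that of operation by day, which called 51 of 13816 genes (0.369%). Of these 51 genes, 21 also varied over the days in sham hearts.

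Lcn2 had 39.8, 28.7 and 39.2 CPM on day 2, 18.4, 13.7 and 8.98 on day 4, 3.57, 6.31 and 3.37 on day 7 and 2.65, 3.22 and 4.94 on day 21 in TAC hearts. In sham hearts it had 12.3, 4.70 and 8.56 on day 2, 1.63, 2.15 and 3.37 on day 4, 4.48, 6.60 and 5.65 on day 7 and 2.92, 2.59 and 3.68 on day 21, and the adjusted p of the difference was 0.0118. Day 2 was highest after both operations, and the TAC values of day 2 and day 4 were above all sham values of those days. Adam19 had 31.3, 39.7 and 47.6 CPM on day 2, 67.6, 75.5 and 79.9 on day 4, 53.97, 41.2 and 43.3 on day 7 and 44.9, 40.97 and 48.2 on day 21 in TAC hearts. In sham hearts it had 35.7, 39.4 and 39.3 on day 2, 64.2, 55.4 and 55.5 on day 4, 21.9, 21.5 and 18.5 on day 7 and 43.2, 36.5 and 46.9 on day 21, with an adjusted p of 0.0163. The day 7 libraries were lowest in sham hearts, while in TAC hearts the day 7 and day 2 libraries overlapped.

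Lrrc17 had 231, 217 and 229 CPM on day 2, 353, 462 and 379 on day 4, 78.3, 94.7 and 142 on day 7 and 246, 177 and 307 on day 21 in TAC hearts. In sham hearts it had 152, 164 and 138 on day 2, 215, 199 and 248 on day 4, 111, 129 and 127 on day 7 and 115, 81.6 and 75.7 on day 21, with an adjusted p of 0.0352. TAC hearts were lowest on day 7 and sham hearts on day 21. Rsad2 had 21.6, 18.5 and 17.03 CPM on day 2, 39.03, 51.5 and 33.4 on day 4, 34.97, 32.5 and 49.6 on day 7 and 37.6, 33.9 and 38.7 on day 21 in TAC hearts. In sham hearts it had 37.7, 28.2 and 24.8 on day 2, 26.6, 34.9 and 33.3 on day 4, 26.7, 25.3 and 21.02 on day 7 and 22.2, 20.05 and 20.7 on day 21, with an adjusted p of 0.0163. TAC hearts were lowest on day 2 and sham hearts on day 21. Snora81 had 17.9, 25.8 and 21.98 CPM on day 2, 26.1, 22.4 and 16.8 on day 4, 20.997, 23.8 and 25.99 on day 7 and 28.7, 26.2 and 27.4 on day 21 in TAC hearts. In sham hearts it had 10.6, 14.7 and 9.05 on day 2, 32.1, 29.5 and 26.1 on day 4, 24.6, 40.3 and 40.8 on day 7 and 33.2, 33.9 and 26.6 on day 21, with an adjusted p of 0.0352. Sham hearts were low on day 2 only, while in TAC hearts days 2, 4 and 7 overlapped and day 21 lay above them.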

How the results depend on the processing

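Counts below are genes at an adjusted p under 0.05, over all 4 days or for a pair of days. Of 613 named gene and comparison pairs, 74 kept their call under all of up to 23 alternatives that gave a value. RLE scaling and the filter of 2 CPM in 3 libraries kept every count within 1.5 times. With no filter there were 1313 genes over the days, 400 for days 4 and 2, 433 for days 7 and 2, 623 for days 21 and 2, 432 for days 21 and 4 and 268 for days 21 and 7. DESeq2 gave 1150 over the days, 274 for days 4 and 2, 350 for days 7 and 2 and 224 for days 21 and 7, and limma with voom gave 133 for days 21 and 4. With all 24 libraries in the fit, where the larger spread of TAC hearts enters, the counts were 94 over the days and 3, 13, 18, 111, 1 and 4 for days 4 and 2, 7 and 2, 21 and 2, 7 and 4, 21 and 4 and 21 and 7. On log2(RPKM + 1) they were 203 over the days, 8 for days 4 and 2, 80 for days 7 and 2, 29 for days 21 and 2, 37 for days 21 and 4 and 40 for days 21 and 7. Without the 3 libraries high in Myl7, which leaves 1 library on day 2, they were 94 for days 7 and 2, 68 for days 21 and 2 and 106 for days 21 and 4. With Myl7 as a covariate they were 346 for days 7 and 2 and 86 for days 21 and 4. Without those libraries and the 1 with adipocyte markers, chosen after seeing the data, they were 142 for days 7 and 2 and 124 for days 21 and 2. Beyond the sample number in these fits the cause was not tested. Leaving out 1 library gave 486 to 900 genes over the days, 66 to 177 for days 4 and 2, 114 to 345 for days 7 and 2, 111 to 560 for days 21 and 2, 327 to 575 for days 7 and 4, 85 to 240 for days 21 and 4 and 33 to 179 for days 21 and 7. The lowest came without day 2 replicate 2 (486 and 66), day 7 replicate 1 (114 and 327), day 21 replicate 2 (111) and day 21 replicate 1 (85 and 33). The TAC count of 161 ran from 2, without TAC day 2 replicate 2, to 208, and the difference count of 51 from 20, without sham day 7 replicate 3, to 113, without TAC day 2 replicate 1. Signs turned for 2 genes. Myl7 between days 4 and 2 had 3.23 and 2.40 in the 2 fits without the 3 libraries high in Myl7, against -8.90. These fits either kept or left out the library with adipocyte markers. The values depend on the prior count since libraries were at 0. Scd1 in fits without day 4 replicate 3 had 0.164 and 0.163 between days 7 and 4 and 0.207 and 0.289 between days 21 and 4. The fit of all 12 libraries gave negative values there. Without day 4 replicate 1 they were -4.80 and -4.68.

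Replicate numbers recur on each day, and nothing in the labels says that they pair libraries. Correlations of same-numbered libraries' deviations were -0.21 to 0.119 over 18 pairs (median 0.0335). For differently numbered libraries they were -0.3 to 0.261 over 36 pairs (median -0.0123). Of 12 libraries 5 correlated best with their own number. Such correlations over all genes cannot decide whether the numbers mark a pairing or a batch. With a replicate block the counts were 694 over the days, 151 for days 4 and 2, 225 for days 7 and 2, 328 for days 21 and 2, 497 for days 7 and 4, 185 for days 21 and 4 and 116 for days 21 and 7, and TAC hearts gave 350.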

Other observations

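Small noncoding RNAs of the nucleolus and of RNA processing were lower on day 2 than later. This group was put together after its values were seen. Of 13 such genes with enough reads 8 varied over the days, against 5.56% of all genes. Higher than on day 2 were 8 on day 21, 7 on day 7 and 3 on day 4, against 1.61%, 1.12% and 0.498% of all genes. Since the group was chosen for its values, these counts are a description. Their summed level was 431 to 489 CPM on day 2, 711 to 736 on day 4, 798 to 1008 on day 7 and 807 to 1072 on day 21, with day 2 below all later libraries. Most of this sum came from Rmrp and Rpph1, so it mainly follows these genes. Rmrp, an RNA of the enzyme that processes ribosomal RNA, had 269.5, 297 and 299 CPM on day 2, 412, 429 and 427 on day 4, 485, 464 and 584 on day 7 and 523, 635 and 521 on day 21, with a log2 fold change of 0.95 ± 0.087 (SE; adjusted p = 2.01e-05) between days 21 and 2. Rpph1, the RNA of RNase P, had 125, 130.2 and 146 CPM on day 2, 247, 230.4 and 215 on day 4, 279, 243 and 342 on day 7 and 208, 326 and 206 on day 21, and its adjusted p over the days was 0.000609. These RNAs carry no poly(A) tail, so that their share depends on how RNA was selected, and the labels do not say whether that varied between days.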
